A study of Arabidopsis thaliana with 48 samples.

Results

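The chloroplast- and mitochondria-encoded transcripts of *Arabidopsis thaliana* were taken as the loci of the expression table whose identifier begins with ATCG or ATMG. They made up 109 of the 31004 loci measured, 18 from the chloroplast genome and 91 from the mitochondrial genome. Each was followed over 48 tiling arrays in 16 groups of 3 biological replicates, formed by genotype, day length and tissue. The genotypes were the double mutant *flc svp* (*flc-3 svp-41*), the single mutants *flc* (*flc-3*) and *svp* (*svp-41*), and plants with functional alleles of both genes, called WT. The products of *FLC* and *SVP* are floral repressors of the MADS-box family. All 4 genotypes, WT included, were Columbia plants with a functional *FRIGIDA* (*FRI*) allele, which raises *FLC* transcription, so no group lacked *FRI*. Seedlings were either moved to long days (LDs) for 2 days after 2 weeks in short days (SDs) or harvested from SDs, always 8 h after dawn, as leaves or as apices. Labels of the SD plants speak both of 2 weeks and of 2 further short days, so LDs and SDs may also differ in plant age.

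Chloroplasts and mitochondria keep small genomes of their own, which encode core subunits of the photosynthetic and respiratory complexes together with ribosomal RNAs, transfer RNAs and ribosomal proteins. Most other proteins of both organelles are nuclear-encoded and imported, so each multisubunit complex is assembled from products of separate genomes. Plastid genes are transcribed by a plastid-encoded polymerase that needs nuclear-encoded sigma factors and by nuclear-encoded phage-type polymerases, and mitochondrial genes by phage-type polymerases alone. Young cells of the shoot apex hold small proplastids with few photosynthetic membranes, and leaf cells hold many large chloroplasts. Plant organelle transcripts carry short poly(A) tails only in part, mostly on molecules bound for decay, whereas the labelling kit used here primes from poly(A). The levels below are therefore signals of whatever organelle RNA was labelled, in log2 units, and signals of different loci are not compared.

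None of the 109 organelle loci was paired with a name in the annotation available (RefSeq, TAIR10.1), and they are given by identifier without a role. Several could not be told apart from each other or from nuclear loci, because they had the same value in all 48 arrays. ATCG00970 and ATCG01160 were identical, as were ATCG00990, ATCG01140 and the nuclear tRNA gene AT2G07764. ATCG00610, ATMG00930 and the nuclear tRNA gene AT2G07748 were also identical, and ATCG00240 had the values of the nuclear tRNA pseudogene AT3G20365. In all, 4 chloroplast loci and 18 mitochondrial loci shared every value with a nuclear locus, and 105 distinct profiles remained among the 109. The nuclear partners of these 18 mitochondrial loci all lay among the AT2G07 loci of chromosome 2, where the Arabidopsis nucleus carries a large insertion of mitochondrial DNA. ATMG00170 and ATMG00620 were identical to each other and shared the partner AT2G07722. A further 30 mitochondrial loci correlated with one of the 121 loci from AT2G076 to AT2G078 at r above 0.9 over the 48 arrays, among them ATMG00280 with AT2G07732 (r = 0.994), ATMG00830 with AT2G07783 (r = 0.992) and ATMG01190 with AT2G07698 (r = 0.987). These pairs share arrays, and how far they share probes is not known, so transcripts of both genomes cannot be told apart there.

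The arrays were on one scale, with medians over all loci from 4.27 to 4.38 and values from 1.37 to 13.7. *FLC* stood at 5.09 to 7.05 in *flc svp* and *flc* arrays and at 8.40 to 9.80 in *svp* and WT arrays. *SVP* stood at 6.46 to 7.63 in *flc svp* and *svp* arrays and at 7.41 to 8.59 in *flc* and WT arrays, and within each tissue these ranges did not overlap. The tissue labels were examined with marker genes: *STM*, a regulator of the shoot meristem, ran from 4.23 to 4.98 in leaves and from 6.76 to 7.82 in apices, and *KNAT1*, *ANT* and *CYCB1-1* were likewise lower in leaves in all 8 comparisons. The other 3 of the 7 apex markers, all genes of the meristem centre, did not separate the tissues: medians were 2.90 in leaves and 2.91 in apices for *CLV3*, 3.18 and 2.96 for *WUS*, and 4.67 and 4.55 for *CLV1*. No array stood on the wrong side of its label.

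Organelle loci varied more between replicates than most loci. The SD within groups, pooled over the 16 groups, had a median of 0.384 over the 18 chloroplast loci (0.171 to 0.666) and of 0.227 over the 91 mitochondrial loci, against 0.158 over all 31004 loci. It exceeded the median of all loci in 18 of 18 chloroplast loci and in 81 of 91 mitochondrial loci. Many mitochondrial loci were dim: 43 of 91, and 1 of 18 chloroplast loci, had a mean signal below the lowest array median.

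The first comparison set leaves against apices. Chloroplast loci were higher in leaves as a group, whereas mitochondrial loci were not. The median signal of the 18 chloroplast loci in an array ran from 7.32 to 9.92 (median 8.83) in the 24 leaf arrays. In the 24 apex arrays it ran from 6.002 to 7.79 (median 7.20), so the ranges overlapped only at the bottom of the leaf range. In 29 of these arrays that median was the value of ATCG00990, which is identical to ATCG01140 and the nuclear tRNA gene AT2G07764. The gap between the ranges therefore rests largely on a profile shared with a nuclear locus. Taken locus by locus, the median change over the 18 lay between 0.43 and 1.06 in the 8 comparisons. The median of the 91 mitochondrial loci ran from 4.07 to 4.70 (median 4.40) in leaf arrays and from 4.19 to 4.54 (median 4.34) in apex arrays, and the tissues overlapped almost fully. Dim loci weigh on this median, as 43 of the 91 had a mean signal below the lowest array median. Without loci below the median level, the median change in leaves against apices was below 0 in all 8 comparisons (-0.40 to -0.09). In bulk tissue, fewer cells or organelles and less RNA in each cannot be told apart.

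A call required a change over 2-fold and a limma adjusted p under 0.01 (Benjamini-Hochberg over all loci). In *flc svp* under SDs, 8 of 18 chloroplast loci were called in leaves against apices, all of them higher, where 8.54% of all loci were called and 4.53% called higher. In *flc* under SDs 3 were called higher (9.83% of all loci called, 5.28% higher), in *svp* under SDs 7 (8.08% called, 4.53% higher) and in WT under SDs 7 (7.92% called, 4.11% higher). Under LDs, 9 were called higher in *flc svp* (9.22% called, 4.94% higher), 8 in *flc* (10.7% called, 5.53% higher), 9 in *svp* (9.48% called, 4.84% higher) and 8 in WT (10.3% called, 5.06% higher). No chloroplast locus was called lower in leaves in any of the 8 comparisons. The median change over the 18 loci was 0.97 in *flc svp*, 0.43 in *flc*, 0.97 in *svp* and 0.68 in WT under SDs, and 1.06, 0.91, 1.06 and 0.95 in the same genotypes under LDs, while that of the nuclear loci lay between -0.01 and 0.05. With arrays scaled on nuclear loci, the medians in *flc* SDs and WT SDs were 0.93 and 1.14, and 13, 11 and 11 loci were called in *flc svp*, *svp* and WT SDs. The share of all loci called with that scaling was not computed. ATCG00990 and ATCG01140, which share all values, count as 2 loci in these numbers.

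In all 8 comparisons 3 chloroplast loci were called higher, ATCG00420, ATCG00480 and ATCG00020. ATCG00420 had the largest change among them. It ran from 8.25 to 10.66 (median 10.03) in the 24 leaf arrays and from 6.05 to 8.01 (median 7.22) in the 24 apex arrays, without overlap. In WT under SDs its arrays read 9.87, 9.76 and 9.64 in leaves and 7.25, 6.45 and 6.77 in apices. The change ranged from 2.35 in *flc* SDs to 3.42 in *flc* LDs (SE 0.34, largest adjusted p 3.84e-07), or 5.11- to 10.7-fold.

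ATCG00480 ran from 10.40 to 11.44 (median 10.995) in leaves and from 8.30 to 9.63 (median 9.11) in apices. Its arrays in *flc svp* under SDs read 10.94, 11.19 and 11.10 in leaves, against 9.15, 8.66 and 8.61 in apices. The change lay between 1.61 and 2.28 (SE 0.19) in the 8 comparisons. ATCG00020 ran from 10.58 to 11.61 (median 10.77) in leaves and from 8.63 to 10.25 (median 9.37) in apices, again without overlap, with changes from 1.08 to 2.00 (SE 0.22). The leaf arrays of ATCG00020 lay close together and its apex arrays were spread. In 2 comparisons its calls rested on single arrays: without replicate 2 of *svp* SD apices the change of ATCG00020 in *svp* SDs was 0.81, and without replicate 3 of *flc* SD apices that in *flc* SDs was 0.97, both under 2-fold. These 3 loci were the only chloroplast loci of 18 (16.7%) whose 24 leaf arrays all lay on one side of their 24 apex arrays, against 15.6% of all loci, and 1 of 91 mitochondrial loci (1.1%) did.

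A further 6 chloroplast loci were called in some comparisons only. ATCG00990 and ATCG01140 rose by 1.52 to 2.43 (SE 0.44) in 7 comparisons. In *flc* SDs, the exception, their leaf arrays read 8.81, 8.39 and 6.25 and their apex arrays 7.57, 6.72 and 6.36, and the change was 0.94 (adjusted p = 0.0848). ATCG00250 rose by 1.16 to 1.72 in the same 7 comparisons (SE 0.29), with 0.83 in *flc* SDs (adjusted p = 0.0195). ATCG00140 rose by 1.48 to 1.64 in 6 (SE 0.39). It missed the call in *svp* SDs, where the change was 1.22, and in *flc* SDs, where leaf arrays read 9.79, 9.85 and 7.97, apex arrays 9.60, 8.57 and 8.14, and the change was 0.43. ATCG00240 rose by 1.07 to 1.54 in 6 comparisons (SE 0.25), missing WT SDs (0.35) and *flc* SDs (0.71), and ATCG00230 rose in *flc svp* LDs (1.28) and *svp* LDs (1.23, SE 0.24).

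Replicate 3 of *flc* SD leaves was low for several of these loci, and without it 5 chloroplast loci were called in *flc* SDs in place of 3. The share of all loci called without that array was not computed. Single arrays also decided some of the partial calls. Those of ATCG00990 and ATCG01140 were lost in WT LDs without replicate 1 or 2 of the leaves or replicate 2 or 3 of the apices, in WT SDs without apex replicate 3, in *flc* LDs without apex replicate 1 and in *flc svp* SDs without apex replicate 2, with changes of 1.21 to 1.52 and adjusted p of 0.0112 to 0.0345. Those of ATCG00140 were lost in WT SDs without leaf replicate 2, in *flc* LDs without apex replicate 3, in *flc svp* LDs without leaf replicate 2 or apex replicate 3, in *flc svp* SDs without apex replicate 2 or 3 and in *svp* LDs without apex replicate 3, with changes of 1.19 to 1.39 and adjusted p of 0.0101 to 0.0251. ATCG00250 lost its call in *svp* LDs without apex replicate 3 (0.88), and ATCG00240 in *flc svp* LDs without apex replicate 2 (0.86).

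The remaining 9 chloroplast loci were never called. ATCG00040 changed by -0.05 to 0.55 (SE 0.20). ATCG00740 lay between -0.19 and 0.22 (SE 0.18), with 8.39, 8.43 and 8.36 in WT SD leaves and 8.91, 8.33 and 8.16 in WT SD apices. ATCG00790 was the locus with the largest spread and ran from -0.93 in *flc* SDs to 1.04 in *flc svp* LDs (SE 0.49). Of the 18 loci, 14 had a change above 0 in all 8 comparisons and none had a change below 0 in all 8.

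**Figure D1:**
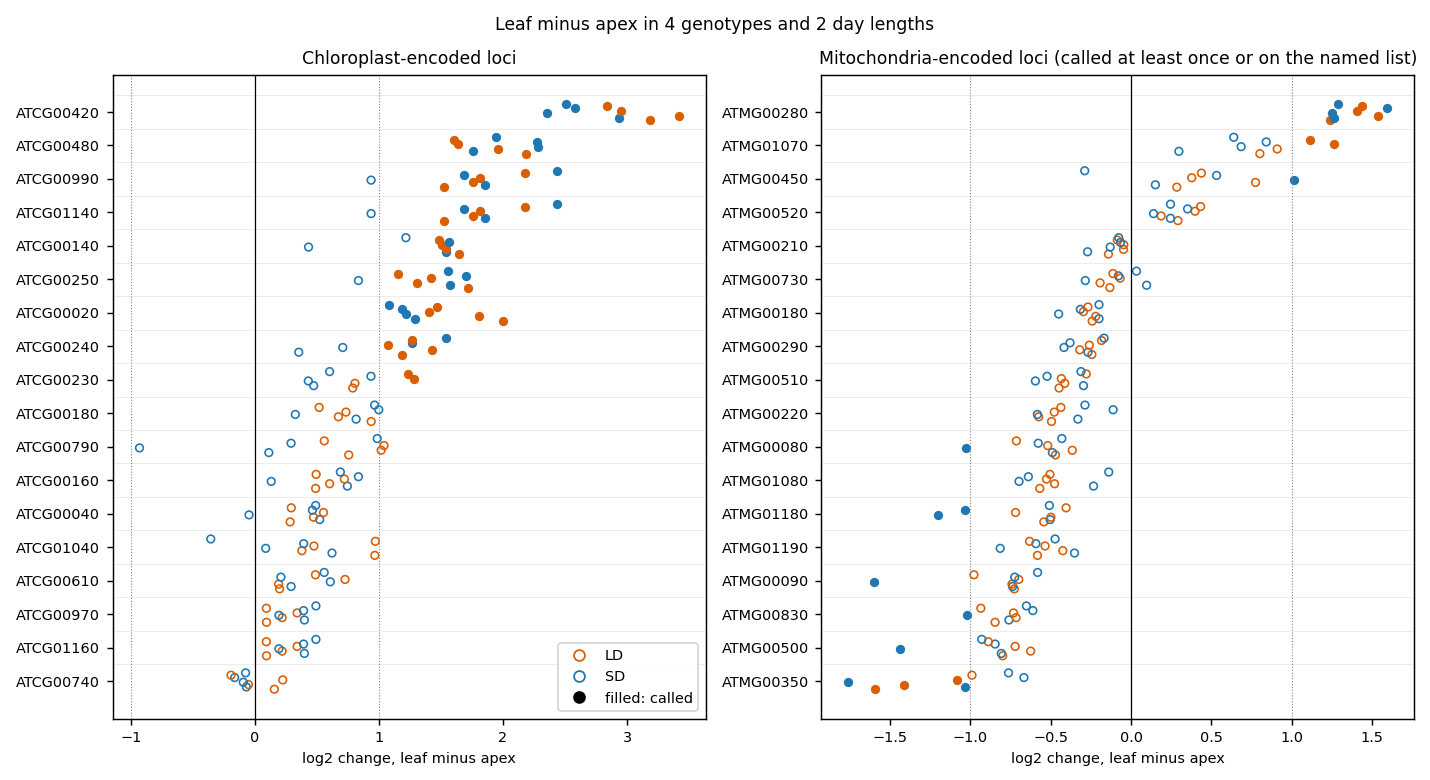
Change in leaves against apices (log2) for the 18 chloroplast loci (left) and for the mitochondrial loci that were called at least once or were set for naming (right), 1 point for each of 4 genotypes under LDs (orange) and SDs (blue). Filled points were called and dotted lines mark a 2-fold change; ATCG00420 lies between 2.35 and 3.42, ATMG00280 between 1.24 and 1.59 and ATMG00350 between -1.76 and -0.67.

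Nuclear genes for plastid proteins were read beside the organelle loci. Of 32 nuclear genes for subunits of the photosystems, the cytochrome b6f complex, the plastid ATP synthase, the NDH complex, Rubisco and the antenna, between 12 and 19 were called higher in leaves in each comparison and none was called lower. Their median change lay between 0.81 and 1.06. *NDHL*, *NDHM*, *NDHN* and *NDHO*, subunits of the plastid NDH complex of cyclic electron flow, rose in all 8 comparisons, *NDHL* by 2.58 to 3.41 (SE 0.13) and *NDHO* by 1.83 to 2.20. *ATPC1*, *ATPD* and *ATPG* of the plastid ATP synthase rose by 1.13 to 1.83, and *PETC*, the Rieske protein of cytochrome b6f, by 1.02 to 1.29.

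Among 9 nuclear genes for the organelle transcription machinery, the sigma factor genes *SIG1* (1.43 to 1.77, SE 0.19), *SIG2* (1.05 to 1.39) and *SIG4* (1.56 to 2.13) rose in leaves in all 8 comparisons. *SIG5* was called in 5 of 8, *SIG6* in 3 and *SIG3* in 2. None of the phage-type polymerase genes was called. *RPOTp*, the plastid enzyme, changed by -0.21 to 0.37, *RPOTmp*, found in both organelles, by -0.25 to 0.07, and *RPOTm*, the mitochondrial enzyme, by -0.90 to -0.02. The list thus split by factor type, with sigma factor genes higher in leaves and polymerase genes not called.

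The mitochondrial loci behaved differently from one another. At the same threshold, 1 locus was called higher and 1 lower in *flc svp* SDs, 2 and 6 in *flc* SDs, 1 and 0 in *svp* SDs, and 1 and 1 in WT SDs. Under LDs, 2 were called higher and 1 lower in *flc svp*, 1 and 1 in *flc*, 2 and 0 in *svp*, and 1 and 1 in WT. Over the 8 comparisons this was 22 of 728 changes, against 59 of 144 for the chloroplast loci, with each locus counted once per comparison. Of all loci, 7.92% to 10.7% were called in these comparisons, 4.11% to 5.53% higher and 3.55% to 5.26% lower. At an adjusted p under 0.01 with no fold threshold, 4 mitochondrial loci were higher and 9 lower in *flc svp* SDs (33.6% of all loci passed), 2 and 22 in *flc* SDs (34.2%), 3 and 3 in *svp* SDs (30.4%) and 3 and 4 in WT SDs (29.8%). Under LDs, 3 were higher and 8 lower in *flc svp* (33.6%), 4 and 6 in *flc* (34.5%), 11 and 9 in *svp* (35.5%) and 6 and 9 in WT (34.2%). In each comparison the share of the 91 loci that passed was thus below that of all loci. The median change over the 91 loci lay between -0.11 and 0.06, above 0 in 6 of 8 comparisons. With loci below the median level left out it was below 0 in all 8, between -0.40 and -0.09.

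ATMG00280 was the only mitochondrial locus called in all 8 comparisons and the only one whose tissues did not overlap over 24 arrays each. It ran from 8.09 to 9.05 (median 8.68) in leaves and from 6.88 to 7.72 (median 7.42) in apices. In WT under SDs it read 8.09, 8.68 and 8.48 in leaves and 7.51, 7.07 and 6.90 in apices. The change lay between 1.24 and 1.59 (SE 0.18, largest adjusted p 3.66e-07). Over the 48 arrays, the signal of ATMG00280 correlated with the chloroplast median at r = 0.935 and, among the 18 chloroplast loci, most with ATCG00420 (r = 0.960). In 29 arrays that median was the value of ATCG00990, with which ATMG00280 correlated at r = 0.894. The 48 arrays hold both tissues and share every library, so the values describe a likeness of pattern. The near-identical profile of the nuclear locus AT2G07732 applies to this result.

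ATMG00350, identical to the nuclear tRNA gene AT2G07762, went the other way. Its arrays in *flc* SDs read 5.28, 5.41 and 5.57 in leaves, against 7.68, 7.37 and 6.48 in apices. It fell in 5 comparisons, with changes of -1.76 in *flc* SDs, -1.59 in WT LDs, -1.41 in *flc* LDs, -1.08 in *flc svp* LDs and -1.04 in WT SDs (SE 0.28), and was also below 0 in the other 3, at -0.99 in *svp* LDs, -0.76 in *svp* SDs and -0.67 in *flc svp* SDs. The WT SD call of ATMG00350 was lost without leaf replicate 1 or 3 or apex replicate 1 or 2 (-0.83 to -0.99), and the *flc svp* LD call without leaf replicate 3 or apex replicate 1 (-0.95 and -0.88). ATMG01070, identical to the tRNA gene AT2G07743, rose in *flc svp* LDs (1.26) and *svp* LDs (1.11, SE 0.25), and each call was lost without 1 apex array (replicate 1 of *flc svp*, replicate 2 of *svp*; 0.94 in both).

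**Figure D2:**
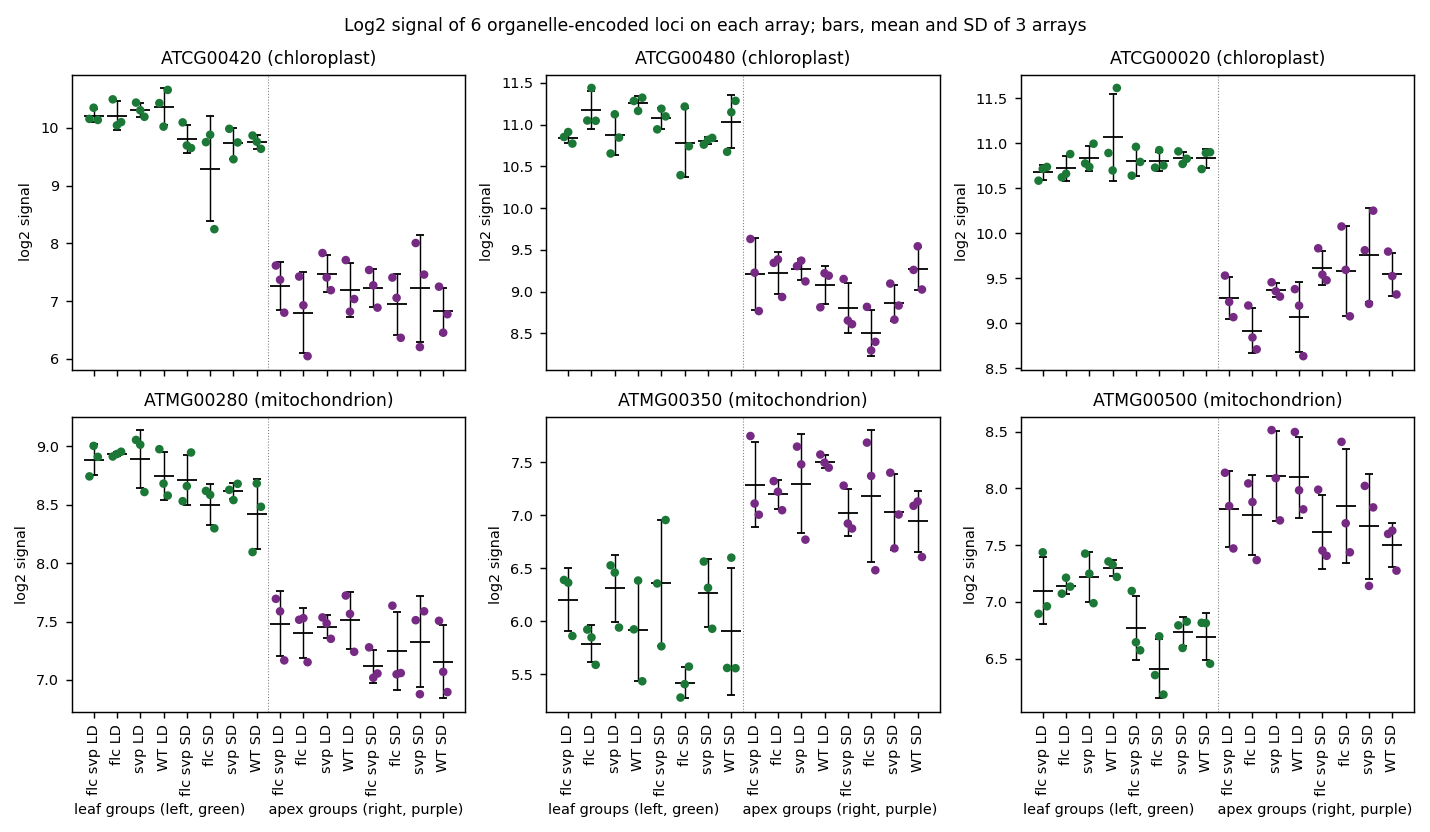
Signal (log2) of 3 chloroplast loci (top) and 3 mitochondrial loci (bottom) on each array, 1 point per array, with leaf groups (green) left of apex groups (purple) and bars for the mean and SD of the 3 arrays of a group. The leaf arrays of ATCG00420 lie between 8.25 and 10.66 and its apex arrays between 6.05 and 8.01, and those of ATMG00280 lie between 8.09 and 9.05 in leaves and between 6.88 and 7.72 in apices.

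Most other mitochondrial calls came from *flc* SDs. There ATMG00090 fell by 1.60, ATMG00500 by 1.44, ATMG01180 by 1.20, ATMG00080 by 1.02 and ATMG00830 by 1.02, and ATMG00450 rose by 1.01. ATMG00090 read 7.49, 7.66 and 6.46 in *flc* SD leaves and 9.54, 8.75 and 8.11 in *flc* SD apices. Replicate 3 of the leaves is the array that was low for chloroplast loci. Leaving out that array took ATMG00830 to -0.88 and ATMG00450 to 0.94, and leaving out apex replicate 1 took ATMG00830 to -0.79 and ATMG00080 to -0.72. Without leaf replicate 1, ATMG00080 stood at -0.94 and ATMG00450 at 0.91. ATMG01180 also fell in *flc svp* SDs, by 1.03, where its call was lost without leaf replicate 2 (-0.88) or 3 (-0.91).

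Other mitochondrial loci had changes of one sign that mostly stayed below 2-fold. ATMG00500, called only in *flc* SDs, lay between -1.44 and -0.62 (SE 0.22), and ATMG00580, never called, between -0.70 and -0.33 (SE 0.11), with no overlap between leaf and apex arrays of a group in any of the 8 comparisons for either. ATMG00580 read 6.92, 6.93 and 7.17 in WT SD leaves and 7.44, 7.43 and 7.51 in WT SD apices, with adjusted p between 1.09e-06 and 0.015. Of the 91 loci, 26 had a change below 0 and 16 a change above 0 in all 8 comparisons. Of the 26, 20 were identical to a locus of the chromosome 2 stretch or correlated with one at r above 0.9, beside 48 of all 91. This r was the highest over 121 loci and spans arrays of both tissues, so a tissue difference enters it.

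A list of 27 organelle loci had been set for naming, of which 12 were in the table: ATCG00020, ATCG00040 and ATCG00480, described above, and 9 mitochondrial loci. None of the 9 was called in any comparison. ATMG01190 changed by -0.81 to -0.35 (SE 0.19), ATMG01080 by -0.70 to -0.14 (SE 0.17), ATMG00510 by -0.60 to -0.28 (SE 0.15), ATMG00220 by -0.58 to -0.11 (SE 0.15) and ATMG00180 by -0.45 to -0.20 (SE 0.11). ATMG00290 (-0.42 to -0.17) and ATMG00210 (-0.27 to -0.05) were also below 0 throughout. ATMG00520 lay above 0 in all 8, between 0.14 and 0.43 (SE 0.10), and ATMG00730 on both sides of 0 (-0.28 to 0.10). ATMG01080 ran from 5.91 to 7.15 in leaf arrays and from 6.65 to 7.40 in apex arrays, and the tissues overlapped.

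Nuclear genes for respiratory proteins moved little in the same arrays. Of 16 such genes, 1 was called in each comparison. It was *AOX1A*, the alternative oxidase, which was higher in leaves by 2.11 to 2.97 (SE 0.13), and the median of the 16 lay between -0.41 and -0.20. The nuclear respiratory list and the named mitochondrial loci therefore both had most changes below 0, with most under 2-fold, and this was not tested against other loci.

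Whether the difference between leaves and apices depended on genotype was tested as a difference of differences. For *svp* against WT, 0.11% of all loci were called under SDs and 0.0194% under LDs. For *flc* the shares were 0.619% and 0.0613%, and for *flc svp* 0.619% and 0.203%. No organelle locus was called in any of these 6 contrasts, and none had an adjusted p under 0.01 (smallest 0.183 for chloroplast and 0.177 for mitochondrial loci). By limma, 4 of 108 chloroplast changes (3.7%) and 22 of 546 mitochondrial changes (4.03%) had an unadjusted p under 0.05, against 9.01% over all loci. The low chloroplast count of *flc* SDs was therefore not shown to differ from that of WT.

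The second comparison addressed the first response to LDs. No organelle locus was called in any of the 8 comparisons, although most chloroplast changes were above 0. Among all loci, 0.316% were called in *flc svp* leaves, 0.839% in *flc* leaves, 0.377% in *svp* leaves, 0.264% in WT leaves, 0.106% in *flc svp* apices, 0.242% in *flc* apices, 0.255% in *svp* apices and 0.297% in WT apices. At an unadjusted p under 0.05, limma gave 34 of 144 chloroplast changes (23.6%) and 86 of 728 mitochondrial changes (11.8%), against 15.5% over all loci. A fit on each tissue alone and an adjustment by Storey's q-value gave 1 chloroplast locus and no mitochondrial locus, described below.

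Chloroplast loci tended to be higher under LDs. In leaves the change was above 0 in 16 of 18 loci in *flc svp* (52% of all loci), 16 in *flc* (52%), 18 in *svp* (54.5%) and 18 in WT (49.8%). In apices it was above 0 in 14 in *flc svp* (49.7%), 11 in *flc* (45.9%), 16 in *svp* (47.3%) and 14 in WT (48.7%). The median change over the 18 loci was 0.25, 0.51, 0.40 and 0.36 in leaves of *flc svp*, *flc*, *svp* and WT, and 0.25, 0.14, 0.51 and 0.46 in apices. All 8 medians were below 2-fold, beside an SD of the chloroplast median between arrays of a group of 0.455. In 29 arrays that chloroplast median was the value of ATCG00990, so this SD largely follows that locus. Mitochondrial loci were above 0 in 379 of 728 changes, and their medians lay between -0.12 and 0.08. Loci of one genome share libraries and in part probes, so these counts are a description and carry no test.

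ATCG00790 had the largest change. In *flc* leaves it read 7.52, 7.77 and 6.73 under LDs and 5.90, 5.82 and 4.78 under SDs, a change of 1.84 (SE 0.49, adjusted p = 0.0133). All 3 LD arrays were above all 3 SD arrays, and replicate 3 was the lowest under both day lengths. In WT leaves it read 7.14, 6.95 and 7.72 under LDs and 5.21, 6.13 and 5.45 under SDs (change 1.67, adjusted p = 0.0501). Over the 12 leaf arrays of each day length it ran from 6.33 to 7.77 (median 7.04) under LDs and from 4.78 to 6.43 (median 5.78) under SDs. In apices its change was 0.30 in *flc svp*, -0.11 in *flc*, 1.07 in *svp* and 1.03 in WT, with adjusted p from 0.259 to 0.96. The *flc* leaf change of ATCG00790 passed the threshold with leaves fitted alone (adjusted p = 0.00435) and by Storey's q-value (0.0097), as well as when replicate 2 of *svp* SD apices or replicate 3 of *flc* SD apices was left out (adjusted p = 0.00747 and 0.00568).

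In all 8 comparisons 8 chloroplast loci were above 0: ATCG00040, ATCG00140, ATCG00160, ATCG00180, the pair ATCG00970 and ATCG01160, and the pair ATCG00990 and ATCG01140. ATCG00160 changed by 0.33 to 0.87 (SE 0.30). It read 11.56, 11.30 and 11.35 in WT LD leaves, against 10.72, 10.92 and 10.88 in WT SD leaves, and 11.10, 10.89 and 10.76 in WT LD apices, against 10.41, 10.11 and 9.77 in WT SD apices, without overlap in either tissue. ATCG00040 changed by 0.10 to 0.66 (SE 0.20, smallest adjusted p 0.0386). ATCG00140 changed by 0.20 to 1.304 (SE 0.39) and ATCG00180 by 0.26 to 0.97 (SE 0.38). ATCG00020 ran against the others, with changes from -0.67 to 0.23 (SE 0.22) that were below 0 in 6 of 8 comparisons, and ATCG00480 lay between -0.23 and 0.72.

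Among mitochondrial loci, 3 changes had an adjusted p under 0.01, all below 2-fold and all in leaves. ATMG00610 read 6.17, 6.09 and 5.92 in WT LD leaves and 5.35, 5.18 and 5.205 in WT SD leaves (change 0.81, SE 0.18, adjusted p = 0.00713). In *flc* leaves it read 5.87, 5.997 and 6.06 under LDs and 5.23, 5.56 and 4.89 under SDs (0.75, adjusted p = 0.00656). The change of ATMG00610 was above 0 in all 8 comparisons, from 0.33 to 0.81, and its arrays did not overlap in 6 of them. ATMG00516 ran the other way in *svp* leaves, with 5.82, 6.19 and 6.13 under LDs and 6.20, 7.15 and 7.27 under SDs (-0.83, SE 0.18, adjusted p = 0.0042), and it was below 0 in all 8 comparisons (-0.83 to -0.25). Without replicate 1 of *svp* SD leaves its change there was -1.14 and it was called. Each of these 2 loci correlated at r above 0.96 with a locus of the chromosome 2 stretch, ATMG00610 with AT2G07719 (0.965) and ATMG00516 with the pseudogene AT2G07786 (0.967).

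ATMG00830 had the largest mitochondrial rise, in *svp* apices, where it read 7.90, 7.74 and 7.19 under LDs and 7.19, 6.31 and 6.73 under SDs (0.87, SE 0.22, adjusted p = 0.017). It was called there without replicate 1 of the SD apices (1.07) or replicate 3 of the LD apices (1.05). These arrays deviated from their group means by 0.45 and -0.42 for ATMG00830, so leaving out either raises the change by construction. In all, 8 mitochondrial loci were above 0 in each of the 8 comparisons (ATMG00280, ATMG00290, ATMG00400, ATMG00490, ATMG00610, ATMG00830, ATMG01270 and ATMG01330) and 5 were below 0 (ATMG00180, ATMG00516, ATMG00590, ATMG01080 and ATMG01210). ATMG00280, which followed the chloroplast loci across tissues, changed by 0.13 to 0.43 (SE 0.18). None of the nuclear genes for photosynthetic, respiratory or transcription proteins listed above was called in these comparisons.

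**Figure D3:**
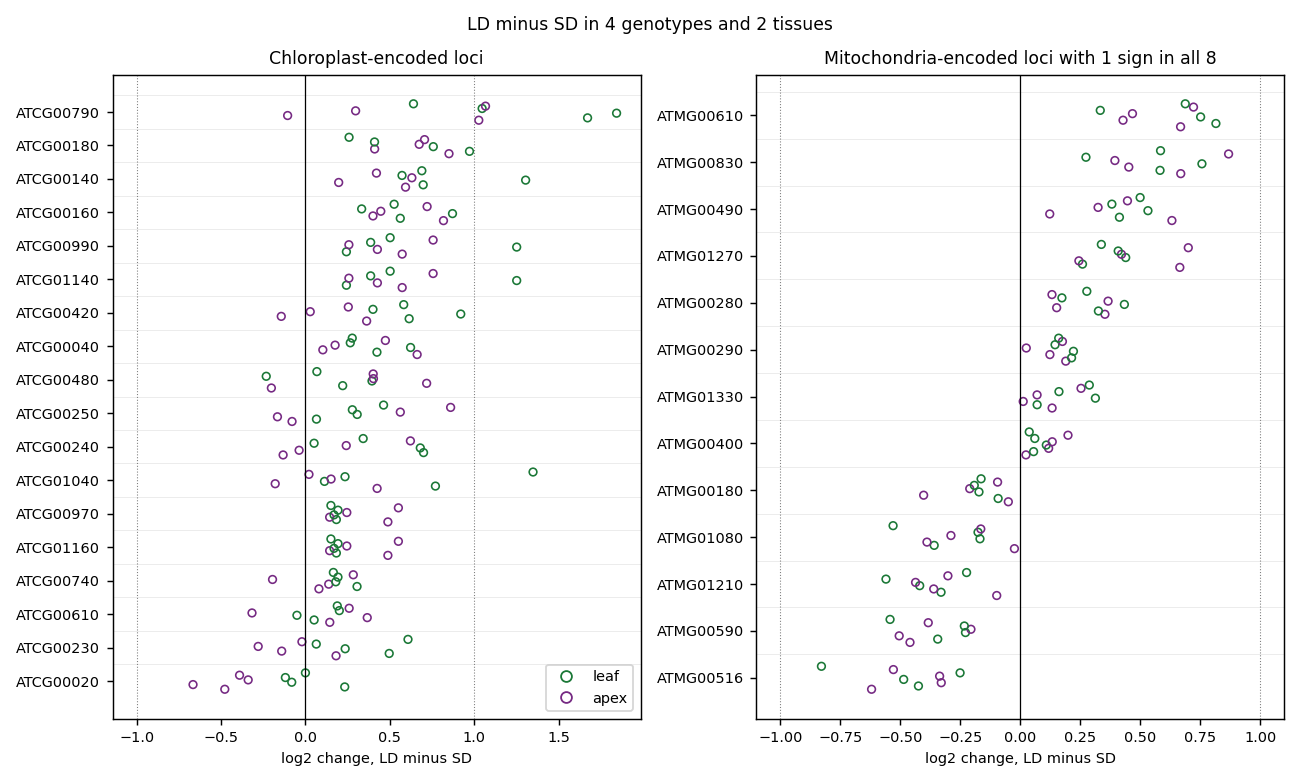
Change under LDs against SDs (log2) for the 18 chloroplast loci (left) and for the 13 mitochondrial loci whose change had 1 sign in all 8 comparisons (right), 1 point for each of 4 genotypes in leaves (green) and apices (purple). ATCG00790 reaches 1.84 in *flc* leaves and ATMG00610 lies between 0.33 and 0.81; no point was called, and dotted lines mark a 2-fold change.

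The response to LDs was not shown to differ between leaves and apices. In that difference of differences, 0.0355% of all loci were called in *flc svp*, 0.31% in *flc*, 0.0323% in *svp* and 0.0968% in WT, and no organelle locus was called or had an adjusted p under 0.01 (smallest 0.145 for chloroplast and 0.0874 for mitochondrial loci). An unadjusted p under 0.05 by limma was found for 9 of 72 chloroplast changes (12.5%) and 16 of 364 mitochondrial changes (4.4%), against 11.5% over all loci.

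The third comparison set each mutant against WT. No organelle locus was called in any of the 12 comparisons and none had an adjusted p under 0.01. In SD leaves, 1.75% of all loci were called in *flc svp*, 1.78% in *flc* and 0.916% in *svp*. In LD leaves the shares were 0.855%, 0.829% and 0.184% in the same order, in SD apices 0.474%, 0.0742% and 0.216%, and in LD apices 0.393%, 0.0645% and 0.142%. At an unadjusted p under 0.05 by limma stood 9 of 216 chloroplast changes (4.17%) and 63 of 1092 mitochondrial changes (5.77%), both below the 13.7% over all loci. The 3 mutants were set against the same WT arrays within each tissue and day length.

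The chloroplast changes ran from -0.84 for ATCG00140 in *flc* SD leaves to 0.95 for ATCG00790 in *flc* SD apices. ATCG00480 had the smallest adjusted p, in *flc* SD apices, where it read 8.82, 8.30 and 8.40, against 9.26, 9.54 and 9.03 in WT SD apices (-0.77, SE 0.19, adjusted p = 0.0467). The arrays of ATCG00480 did not overlap there. In *flc* LD apices it read 9.34, 9.39 and 8.94, against 8.81, 9.22 and 9.19 in WT LD apices, and the groups overlapped.

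**Figure D4:**
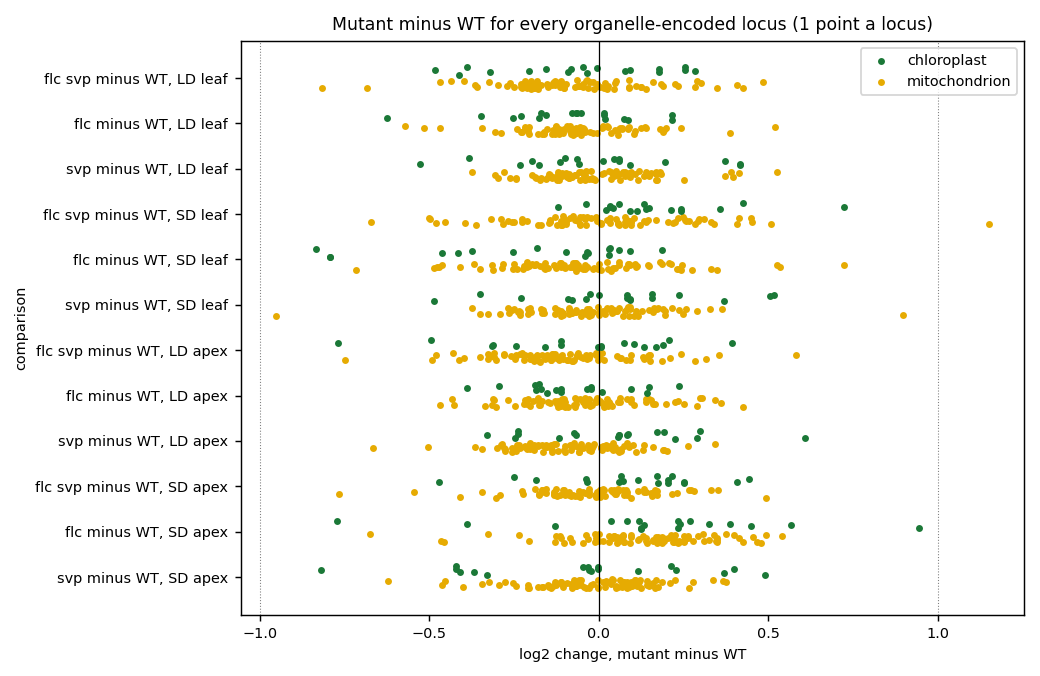
Change in each mutant against WT (log2, horizontal axis) in the 12 comparisons, 1 point per locus, for the 18 chloroplast loci (green) and the 91 mitochondrial loci (yellow). Chloroplast changes run from -0.84 to 0.95 and mitochondrial changes from -0.95 to 1.15, and no point was called.

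Mitochondrial changes ran from -0.95 for ATMG01410 in *svp* SD leaves to 1.15 for ATMG00050 in *flc svp* SD leaves, and the smallest adjusted p belonged to ATMG00040 in *flc svp* SD leaves. ATMG00050 read 4.45, 4.66 and 5.27 in *flc svp*, 4.97, 3.99 and 4.66 in *svp* and 3.56, 3.63 and 3.75 in WT SD leaves (for *flc svp*, SE 0.38, adjusted p = 0.0456). All *flc svp* and *svp* arrays were above those of WT there. ATMG00040 read 6.01, 6.08 and 6.04 in *flc svp* and 6.34, 6.82 and 6.99 in WT SD leaves, without overlap (-0.67, SE 0.19, adjusted p = 0.0179). ATMG01210 and ATMG00570 were below 0 in all 12 comparisons, which share WT arrays among the mutants. ATMG01210, whose values are those of the pseudogene AT2G07826, changed by -0.75 to -0.21 (SE 0.22, smallest adjusted p 0.0485). In LD apices it read 5.13, 4.53 and 4.52 in *flc svp*, 5.41, 4.82 and 4.79 in *flc*, 4.79, 4.52 and 5.12 in *svp*, and 5.22, 5.76 and 5.46 in WT. Only the *flc* arrays overlapped with those of WT there. ATMG00570 changed by -0.43 to -0.01 and did not reach an adjusted p under 0.01 in any comparison. Over the 12 comparisons, the number of mitochondrial loci above 0 was highest in *flc* SD apices, with 70 of 91 (median 0.16; 52.1% of all loci above 0), and lowest in *flc svp* LD apices, with 22 (median -0.12; 50.4%), followed by *flc svp* LD leaves, with 27 (median -0.11; 50.8%).

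The interaction of *FLC* and *SVP* (the change in *flc svp* minus the sum of those in *flc* and in *svp*) was fitted in each tissue and day length. In leaves it was called in 1.11% of all loci under SDs and 0.4% under LDs, and in apices in 0.00968% under SDs and 0.0129% under LDs. No organelle locus was called, the smallest adjusted p being 0.507 for chloroplast and 0.362 for mitochondrial loci, and 2 of 72 chloroplast values (2.78%) and 11 of 364 mitochondrial values (3.02%) had an unadjusted p under 0.05 by limma, against 7.46% over all loci. None of the nuclear genes for organelle proteins listed above was called between a mutant and WT.

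The spread between replicates had a structure of its own. For each array, deviations from the group mean were averaged over 13 chloroplast loci without an identical nuclear locus, with ATCG00970 and ATCG01160 counted once. This mean (for a chloroplast member, without itself) was set against the deviation of each locus over the 48 arrays. ATCG00160 followed this mean at r = 0.927 (Spearman's rho 0.908, and r = 0.905 without the 2 farthest arrays) and ATCG00040 at r = 0.898. Other chloroplast loci did not, as ATCG00740 (r = 0.0454) and ATCG00230 (r = -0.0974), and pairs among the 13 had a median r of 0.309 (-0.275 to 0.918).

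Among mitochondrial loci, 9 followed the chloroplast mean at r above 0.7, where 0.316% of all loci did. They were ATMG00090 (0.917), ATMG00830 (0.863), ATMG00570 (0.849), ATMG00500 (0.840), ATMG00280 (0.825), ATMG01280 (0.814), ATMG01190 (0.735), ATMG00990 (0.730) and ATMG01270 (0.706). For ATMG00090, Spearman's rho was 0.876 and r was 0.904 without the 2 farthest arrays, with 0.835 within leaves and 0.943 within apices. For ATMG00830, rho was 0.825 and r was 0.839 without the 2 farthest arrays, with 0.615 within leaves and 0.912 within apices. Over all loci, the 5th and 95th percentiles of r were -0.377 and 0.372, and pairs among the 73 mitochondrial loci without an identical nuclear locus had a median r of 0.101. These are descriptions over arrays that share libraries, with no test.

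The arrays farthest below their group were replicate 2 of *svp* SD apices (mean deviation -0.51) and replicate 3 of *flc* SD apices (-0.43), and the farthest above was replicate 1 of *svp* SD apices (0.46). In replicate 2 of *svp* SD apices, ATCG00160 read 9.16 beside 10.73 and 10.33 in the other replicates, and ATMG00830 6.31 beside 7.19 and 6.73. Replicate 3 was the lowest of its group in 11 of 16 groups, replicate 2 in 3 and replicate 1 in 2. In apices, replicate 3 was the lowest in 7 of 8 groups, and replicate 1 was the highest in every group. What the replicate numbers stand for is not stated in the labels, and the part of this spread in the results above was tested only by leaving arrays out.

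**Figure D5:**
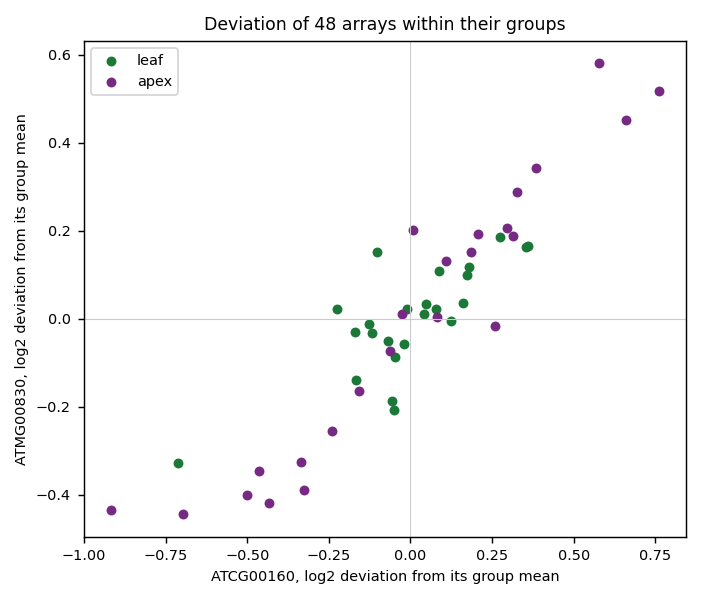
Deviation of ATMG00830 (vertical axis) against that of ATCG00160 (horizontal axis) from their group means (log2) on the 48 arrays, leaf arrays in green and apex arrays in purple. The array farthest to the left is replicate 2 of *svp* SD apices, at -0.92 for ATCG00160 and -0.43 for ATMG00830.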

How the data were processed

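RNA of leaves and apices was labelled from poly(A) with a 3' IVT kit and hybridised to AGRONOMICS1 tiling arrays, 48 in all. The authors deposited log2 signals per locus, computed by RMA (version not given in the sources used here): background correction, quantile normalisation between arrays and 1 summary value from the probes of each locus. The genome release behind the probe assignment is not given in the sources used here, so no coordinates or sequences are printed, and 30484 of 31004 loci matched a locus tag of RefSeq TAIR10.1. All 48 columns of the table were used.

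All 31004 loci were fitted together with limma 3.58.1 in R 4.3.3 (tables read with data.table, version 1.17.8). The model held 16 group means, and arrays of one replicate number were allowed a common correlation (0.0336). Moderation by eBayes used 3.29 prior and 32 residual degrees of freedom. Within each contrast the Benjamini-Hochberg adjustment ran over all loci, and a locus was called at more than 2-fold and an adjusted p under 0.01. There were 36 planned contrasts, and 6 on the dependence of the tissue difference on genotype were added after the data had been seen. The procedure was also run on simulated data with independent normal noise for each locus. Those data lack the replicate spread shared among organelle loci, so the run cannot speak for it.

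The loci named are a list of 27, of which 12 were in the table, and, in each contrast, at most 3 risers and 3 fallers of each genome, ranked by size, out of the called loci without overlap between arrays. Other loci were chosen after their values were seen. The loci and the nuclear lists were chosen with earlier results of these data known. Alternatives were the block, array scaling, a filter on low loci, the fold threshold, Storey's q-value, separate fits, the removal of loci that share values, and leaving out each array. Arrays give no counts, and their number limits the precision. The replicates are biological per the study's methods, which do not say how plants were pooled.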

Additional observations from a re-analysis of the deposited data

How the results depend on the processing

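The model was refitted without the replicate block, with the block fitted within each tissue and day length, and with a trend in eBayes. All 22 counts stayed within 1.5 times their value, and all 84 locus changes kept their side of the threshold. With equal group sizes these settings leave the fitted changes as they are, so the directions and the 56 medians could not move. Without the replicate block, the counts of called chloroplast loci in leaves against apices were, as with it, 7 in WT SDs and 9 in *svp* LDs. Within a tissue and day length, same-numbered arrays correlated in their deviations from the group means at -0.04 to 0.34 over 72 pairs (means of 0.0646 to 0.162 in the 4 sets, against -0.0806 to -0.0323 for arrays of different numbers). Not every pair was above 0.1 and the labels do not say what a number marks, so whether the numbers pair the arrays was not settled. For the chloroplast loci of apices, replicate 1 was the highest in every group and replicate 3 the lowest in most. The fit gave these loci the same correlation between arrays of one number as all loci (0.0336). No called change reversed under any alternative, but only array centring, array scaling and leaving out arrays could alter a fitted change. Array medians ran only from 4.27 to 4.38, so centring could hardly reverse a change over 2-fold. The cause of the changes below was not tested unless the construction shows it.

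With arrays scaled on nuclear loci, 11 chloroplast loci were called in leaves against apices in WT SDs, 13 in *flc svp* SDs and 11 in *svp* SDs, with medians of 1.14 in WT SDs and 0.93 in *flc* SDs, and 1 mitochondrial locus in WT SDs. How many of all loci were called with that scaling, or in the other refits of this section, was not computed. Centring on the median of all loci also left 1 mitochondrial locus in WT SDs. Fitting the 2 groups alone, which leaves fewer degrees of freedom, gave 5 chloroplast loci in *flc svp* SDs and 1 and 5 mitochondrial loci in WT SDs and *flc* SDs. With no fold threshold, 15, 7, 10, 24, 11, 13, 20 and 6 mitochondrial loci passed in WT LDs, WT SDs, *flc* LDs, *flc* SDs, *flc svp* LDs, *flc svp* SDs, *svp* LDs and *svp* SDs, and 2 passed for LDs against SDs. With identical loci counted once and those identical to a nuclear locus removed, chosen after seeing the data, 5 chloroplast loci were called in WT LDs, 5 in *flc* LDs, 5 in *flc svp* SDs and 4 in *svp* SDs, and 1 mitochondrial locus in WT LDs, WT SDs, *flc* LDs, *flc svp* LDs and *svp* LDs, because fewer loci remained. For LDs against SDs, 1 chloroplast locus (ATCG00790 in *flc* leaves) passed with nuclear scaling, without loci below the median level, by Storey's q-value and in separate fits for each tissue (adjusted p or q 0.00949, 0.00448, 0.0097 and 0.00435).

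Leaving out 1 array at a time gave 6 to 9 chloroplast loci in WT LDs, 5 to 8 in WT SDs, 6 to 9 in *flc* LDs, 3 to 5 in *flc* SDs, 8 to 9 in *flc svp* LDs, 5 to 9 in *flc svp* SDs, 7 to 9 in *svp* LDs and 6 to 9 in *svp* SDs. The mitochondrial counts were 2 to 3, 1 to 2, 2 to 4, 6 to 12, 1 to 3, 2 to 4, 1 to 9 and 1 to 2 in the same order. The 9 in *svp* LDs came without apex replicate 3, and leaf replicate 2 and apex replicate 2 left 5 and 1 there. Leaving out an array also changes the calls among all loci, whose share was not computed, so these ranges describe how steady the counts are. Without 1 array, the chloroplast count was 5 in *flc* SDs (leaf replicate 3) and 5 in *flc svp* SDs (apex replicate 2), and the mitochondrial count was 4 in *flc* LDs (apex replicate 1), 1 in *flc svp* LDs (apex replicate 1), 4 in *flc svp* SDs (apex replicate 2), 2 in *svp* SDs (leaf replicate 3 or apex replicate 2) and 1 in WT SDs (leaf replicate 1 or 3, apex replicate 1 or 2). For LDs against SDs both genomes gave 0 to 1, and for mutants against WT and for the interaction 0 to 0. Without loci below the median level, medians of the mitochondrial loci in leaves against apices lay between -0.40 and -0.09, below 0 in all 8 comparisons, over the brighter loci that remained. Of the 84 single-locus changes, 11 in leaves against apices lost the call under at least 1 alternative that kept all arrays, and 3 in LDs against SDs gained one when no fold was required. These 3 had been included for a limma adjusted p under 0.01 in the main fit, so that gain was fixed in advance. Signal near background limits the 43 dim mitochondrial loci.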

Other observations

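The deviations of nuclear genes were set beside those of the chloroplast loci. Of the 32 nuclear photosynthesis genes, 29 deviated from their group means against the chloroplast mean over the 48 arrays (r below 0), with a median r of -0.353 and a range of -0.696 to 0.414. Over all loci the median r was -0.0186, with 5th and 95th percentiles of -0.377 and 0.372, and the share below 0 was not computed. The 16 nuclear respiratory genes had a median r of 0.186 and the 9 genes for organelle transcription one of 0.189. In leaves against apices, by contrast, both the chloroplast loci and the nuclear photosynthesis genes had medians above 0 in all 8 comparisons. These values share arrays and RMA normalisation, and what moves with the replicate spread was not tested.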
